A study of Mus musculus with 6 samples.

Results

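Serpins are a family of protease inhibitors, and the plasminogen activators are proteases that several of them hold in check. The set described here held every gene of the deposited table whose symbol begins with Serpin, together with Plau, Plaur and Plat, which made 50 of 16763 genes. RNA came from breast tumors of BALB/c mice given 4T1 cells, a carcinoma line that arose in the mammary gland of such mice. The model group (3 libraries) bore these tumors without the DMDD liposome, and the DMDD liposome group (3 libraries) bore the same tumors and received DMDD, named only by this abbreviation, in lipid vesicles. All animals were labelled male, the sample descriptions say rat where the organism and strain are mouse, and no age or dose is given in the sources used here. The tumors came from 1 cell line in a single host strain, and nothing in the labels ties a library to a particular mouse, so the p-values speak for the scatter among these libraries, part of which may be technical.

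A serpin offers a flexible loop as bait, and the protease that cuts it is trapped in a covalent complex. The urokinase encoded by Plau and the tissue activator encoded by Plat both cut plasminogen to plasmin, which dissolves fibrin and degrades matrix. Plaur encodes the receptor that holds urokinase at the cell surface, and several serpins inhibit both activators. In breast tumors this system is known as a marker of invasion, and members of the family without inhibitory activity serve as chaperones or hormone carriers.

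Libraries held 13037500 to 15616840 counts, at which 3 counts stood for 0.193 to 0.230 CPM (a count relative to the library's total, scaled by TMM). The 50 members took 0.174% to 0.258% of the counts of a library. Of the 50, 20 passed the count filter and were tested, and 30 did not. The 14 genes of the keratinocyte list, of which 13 were in the table, summed to 244 CPM in model replicate 2 and to between 8.13 and 14.0 CPM in each other library, so that model replicate 2 stood apart for epidermal genes. Model replicate 1 also stood apart from the other model libraries for several members below. All 13 epithelial tumor cell markers listed were in the table, at 4283 to 7179 CPM in model and 3910 to 4889 CPM in DMDD liposome.

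None of the 20 tested members passed edgeR's quasi-likelihood test after Benjamini-Hochberg adjustment over all 12891 genes, where the share called was 0% of all genes. At an unadjusted p under 0.05, 3 of 20 were found against 7.65% of all genes. Serpine2 was the 1 member higher in DMDD liposome (4.34% of all genes), and Serpinb5 and Serpinb6a were the 2 lower (3.31%). Groups were free of overlap for 2 of the 20 members, against 12.9% of all genes tested. These were Serpine2, with the DMDD liposome values higher (7.21% of all genes), and Serpinb6a, with them lower (5.66%). DESeq2 called 0 of the 31 members with an adjusted p (0.408% of all genes), and the authors' deposited table called 0 of 50 (0.346% of all genes). Without model replicate 1, edgeR called 2 of 21, Serpine2 and Serpinb5, against 0.851% of all genes. The median log2 fold change of the 20 was -0.14, beside 0.0058 over all genes tested, and 10 of the 20 were positive (51.2% of all genes). The sign of that median turned on single libraries: it was -0.41 without model replicate 1, and 0.056, 0.052, 0.032 and 0.027 without model replicate 2, model replicate 3, DMDD liposome replicate 1 and DMDD liposome replicate 3.

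**Figure D1:**
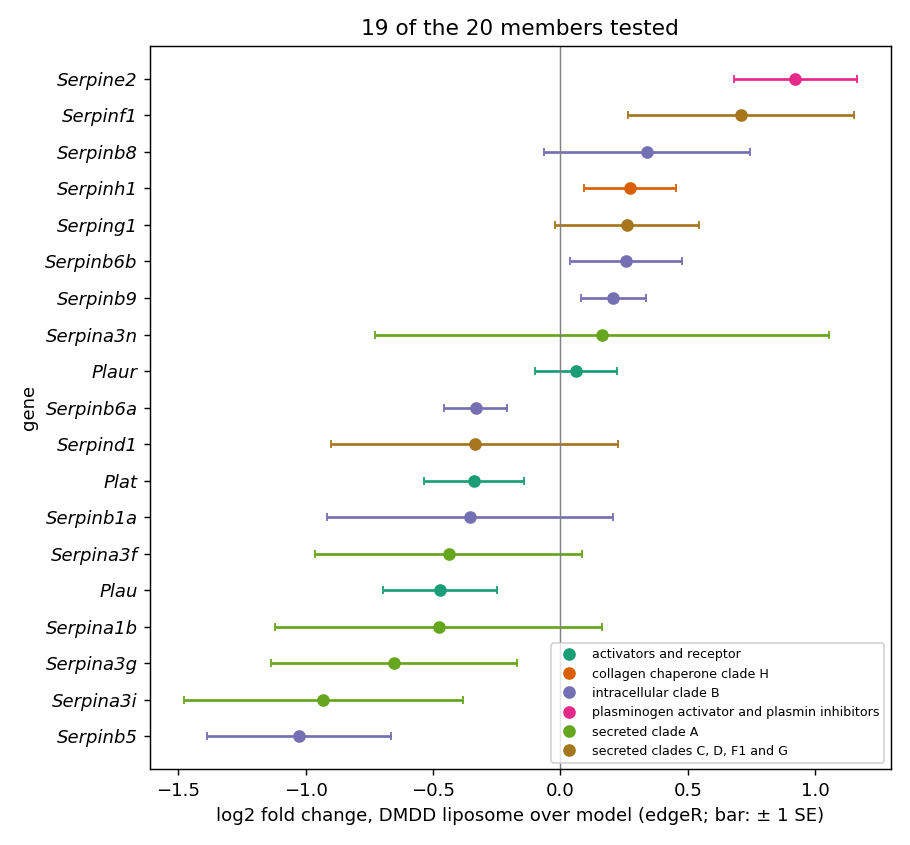
Log2 fold change of DMDD liposome over model for 19 of the 20 tested members (x axis), ordered by value, with bars of 1 SE from edgeR and colors for the members' roles. Serpine2 stands highest at 0.92 and Serpinb5 lowest at -1.03, and none of the members shown passed the adjusted test.

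Both plasminogen activators measured lower on average in the DMDD liposome tumors, and neither difference passed the test. Plau stood at 203, 373 and 248 CPM in model replicates 1 to 3 and at 169, 219 and 206 CPM in DMDD liposome replicates 1 to 3. The groups overlapped, because model replicate 1 lay among the DMDD liposome libraries. Its log2 fold change was -0.47 ± 0.22 (SE), with an edgeR adjusted p of 0.659, and it went to -0.20 without model replicate 2, the highest library. Plat stood at 54.6, 73.8 and 92.1 CPM in model and at 56.2, 66.2 and 52.1 CPM in DMDD liposome. Here too model replicate 1 fell among the DMDD liposome values, and the log2 fold change was -0.34 ± 0.20 (edgeR adjusted p = 0.711). The value for Plat was -0.16 when model replicate 3 was left out and -0.51 when model replicate 1 was. In such bulk samples, fewer cells of a type and less RNA per cell cannot be told apart.

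The receptor gene Plaur showed nearly equal group means. Its model libraries stood at 114, 110 and 116 CPM, a narrow range, and its DMDD liposome libraries at 89.8, 141 and 124 CPM, on both sides of it. The log2 fold change was 0.06 ± 0.16 (edgeR adjusted p = 0.937), and it was -0.094 without DMDD liposome replicate 2. On the FPKM scale, which allows for gene length, Plau averaged 101 over the 6 libraries, Plaur 76.7 and Plat 26.0. Plau exceeded Plat in every library.

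Serpine2 was the inhibitor of the activators with no overlap between the groups. It encodes protease nexin 1, which inhibits thrombin, urokinase and the tissue activator. Serpine2 stood at 149, 97.3 and 73.2 CPM in model replicates 1 to 3 and at 210, 183 and 212 CPM in DMDD liposome replicates 1 to 3. Every DMDD liposome library lay above every model library, and model replicate 1 was the nearest to them. The group means were 107 ± 38.9 CPM and 202 ± 16.03 CPM (mean ± SD, n = 3 per group), and the log2 fold change was 0.92 ± 0.24 (1.89-fold). The unadjusted p was 0.00568 and the adjusted p was 0.626 in edgeR's quasi-likelihood test. In the authors' deposited table Serpine2 had an adjusted p of 0.0657. Leaving out single libraries gave edgeR log2 fold changes of 0.70 to 1.24, and the adjusted p was 0.0354 without model replicate 1 and 0.498 to 0.999 without each of the others. Macrophage and monocyte markers, all 14 in the table and none at 0, ordered the model libraries alike. They summed to 2878, 2314 and 1591 CPM in model replicates 1 to 3. In DMDD liposome replicates 1 to 3 the sums were 4066, 2989 and 3265 CPM, also without overlap. Pericyte and smooth muscle markers, 9 of 9 in the table, gave the same model order and no overlap. Their sums were 272, 227 and 178 CPM in model replicates 1 to 3, and 295, 658 and 284 CPM in DMDD liposome replicates 1 to 3. The sums include Des, with 160, 57 and 28 counts in model and 449, 59 and 932 in DMDD liposome. Skeletal muscle markers had that DMDD liposome order too, at 149, 34.6 and 288 CPM. Of the 9 pericyte and smooth muscle markers, 8 were positive. The other 1, Notch3, was lower without overlap, at a log2 fold change of -0.77 ± 0.20. Neither set ordered the DMDD liposome libraries as Serpine2 did, and the part of these cells in the Serpine2 result was not tested.

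The start region of Serpine2 is shown because this member had the smallest p of the 20, and that of Serpinb5 because it was the other member called without model replicate 1. Each is 300 bases long, from 250 before to 50 after a RefSeq transcription start, written 5′ to 3′ on the gene's strand, from RefSeq on GRCm38.p6. The submitters' processing notes name mm9, so no count is tied to these coordinates. Capitals mark the motifs searched on both strands. Serpine2 lies at chr1:79858616-79858915 (minus strand) and Serpinb5 at chr1:106860925-106861224 (plus strand).
Serpine2: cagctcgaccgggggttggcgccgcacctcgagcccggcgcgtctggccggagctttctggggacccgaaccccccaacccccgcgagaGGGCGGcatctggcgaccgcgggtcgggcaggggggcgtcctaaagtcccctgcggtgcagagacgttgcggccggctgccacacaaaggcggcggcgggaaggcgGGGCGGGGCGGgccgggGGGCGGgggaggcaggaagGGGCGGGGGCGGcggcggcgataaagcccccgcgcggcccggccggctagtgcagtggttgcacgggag
Serpinb5: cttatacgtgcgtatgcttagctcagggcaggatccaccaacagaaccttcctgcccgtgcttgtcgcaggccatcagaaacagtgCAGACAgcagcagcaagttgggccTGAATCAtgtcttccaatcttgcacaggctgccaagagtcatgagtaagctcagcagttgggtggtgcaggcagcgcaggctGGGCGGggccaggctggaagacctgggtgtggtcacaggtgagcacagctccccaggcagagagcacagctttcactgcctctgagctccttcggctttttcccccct
The Serpine2 window held 6 copies of the GC box GGGCGG, some of which overlap, with first bases at -161, -55, -50, -38, -19 and -13 from the start. The Serpinb5 window held 1 GC box at -58, a match to the AP-1 pattern TGANTCA at -140 and the SMAD motif CAGACA at -164. In that pattern N was allowed to be any base, and the stretch here reads TGAATCA. Of 32851 windows of this length, 35.7% held a GC box, 7.81% the AP-1 motif and 21.0% the SMAD motif. The motifs TATAAA (13.6% of windows) and CACGTG (7.15%) were in neither. A match is a description of the letters only. In all, 41 of the 50 members had an entry in that table.

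Serpinb2, which encodes an intracellular activator inhibitor, PAI-2, was close to the detection limit, with 2, 25 and 6 counts in model replicates 1 to 3 against 0, 8 and 3 under DMDD liposome. Serpini1, the neuroserpin that inhibits the tissue activator, had 4, 9 and 5 counts against 8, 4 and 10. Serpinf2, the inhibitor of plasmin itself, had at most 2 counts in any library, a level at which no difference was detectable. Serpine3, a less studied relative of Serpine2, likewise had at most 2.

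Set side by side on the FPKM scale, Serpine2 was below Plau in every model library. Its FPKM was 0.778, 0.277 and 0.312 times that of Plau in model replicates 1 to 3. In DMDD liposome replicates 1 to 3 the ratio was 1.32, 0.888 and 1.09. The 3 DMDD liposome libraries lay above the model libraries, and model replicate 1 was the nearest. This ratio was chosen after the values were seen and has no test. Transcript ratios do not measure active protease.

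**Figure D2:**
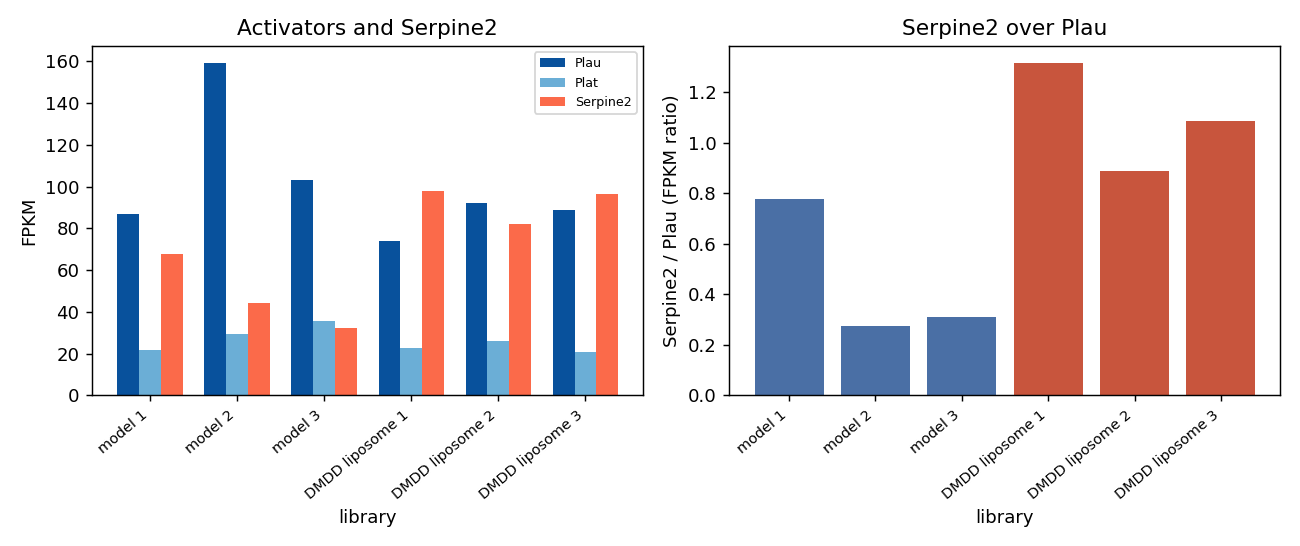
Left, FPKM of Plau, Plat and Serpine2 in each of the 6 libraries, as bars from 0. Right, the FPKM of Serpine2 divided by that of Plau in each library. The ratio is 0.277 to 0.778 in the model libraries (blue) and 0.888 to 1.32 in the DMDD liposome libraries (red).

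The intracellular clade B serpins guard cells against proteases released inside them or by neighbors, and 6 of the 19 in the table were tested, 3 positive and 3 negative. Serpinb5 encodes maspin, a serpin of mammary and other epithelia that does not inhibit proteases in the usual way. It stood at 11.6, 32.9 and 29.7 CPM in model and at 12.4, 13.4 and 10.6 CPM in DMDD liposome. Model replicate 1 fell among the DMDD liposome values, and the other model libraries were far above it. The log2 fold change was -1.03 ± 0.36, with an unadjusted p of 0.0233 and an edgeR adjusted p of 0.626. It went to -1.36 without model replicate 1 (edgeR adjusted p = 0.0299) and to -0.77 without model replicate 2. The summed epithelial tumor cell markers were likewise highest in model replicates 2 and 3, at 7179 and 6453 CPM. They stood at 4283 CPM in model replicate 1 and at 4519, 3910 and 4889 CPM in DMDD liposome replicates 1 to 3. Within DMDD liposome their order was the reverse of that of Serpinb5. Of the 13 markers, 1 was at 0 in each of DMDD liposome replicates 1 and 2. Model replicate 2, the highest library for Serpinb5, was also the library whose keratinocyte markers summed to 244 CPM. In model replicate 3 these summed to 14.0 CPM. The part of either marker set in the result was not tested.

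Serpinb6a, a cytosolic inhibitor of trypsin-like proteases and cathepsin G, had the highest FPKM of the clade, at 147 on average. It stood at 278, 367 and 341 CPM in model and at 253, 267 and 264 CPM in DMDD liposome. The groups did not overlap, by a narrow gap between model replicate 1 and DMDD liposome replicate 2. The log2 fold change was -0.33 ± 0.12 (unadjusted p = 0.0299, edgeR adjusted p = 0.629), and without single libraries it ranged from -0.44 to -0.25. Its paralog Serpinb6b stood at 10.8, 7.48 and 11.6 CPM in model and at 10.5, 12.99 and 12.2 CPM in DMDD liposome, overlapping, with a log2 fold change of 0.26 ± 0.22 (edgeR adjusted p = 0.804), or 0.081 without model replicate 2.

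Serpinb9 encodes the inhibitor of granzyme B with which lymphocytes and tumor cells protect themselves. It stood at 39.3, 45.9 and 51.8 CPM in model and at 50.9, 55.1 and 52.2 CPM in DMDD liposome. Its groups overlapped only through model replicate 3, and the log2 fold change was 0.21 ± 0.13 (edgeR adjusted p = 0.724), or 0.11 without model replicate 1. The 12 cytotoxic lymphocyte markers, all in the table and none at 0, summed to 60.7 to 108 CPM in model and 57.6 to 197 CPM in DMDD liposome, with the lowest sum in the library where Serpinb9 was highest. Its relative Serpinb9b had few reads, at 3, 8 and 2 counts against 8, 13 and 20.

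Clade A holds the secreted antiproteases made mainly by liver, and the mouse has extra copies of the antichymotrypsin-like Serpina3 genes. Of the 17 listed, 5 were tested, 4 of them with negative values. Serpina3g, an inhibitor of cathepsins induced in activated lymphocytes and macrophages, stood at 33.3, 51.1 and 121 CPM in model and at 32.1, 34.5 and 64.3 CPM in DMDD liposome. Replicate 3 of each group was the highest and the groups overlapped. The log2 fold change of -0.65 ± 0.48 (edgeR adjusted p = 0.773) was 0.036 without model replicate 3. Serpina3i, a little studied gene of the same cluster, stood at 3.68, 5.29 and 11.4 CPM in model and at 1.84, 5.89 and 2.998 CPM in DMDD liposome. Its log2 fold change of -0.93 ± 0.55 (edgeR adjusted p = 0.717) was -0.34 when model replicate 3 was left out and -1.49 when DMDD liposome replicate 2 was.

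Serpinh1 encodes HSP47, the collagen chaperone of the endoplasmic reticulum, and had the highest level of all members at 278 FPKM on average. It stood at 583, 659 and 601 CPM in model and at 722, 930 and 577 CPM in DMDD liposome. The lowest and the highest library both belonged to the DMDD liposome group. The log2 fold change was 0.27 ± 0.18 (edgeR adjusted p = 0.749), and 0.07 without DMDD liposome replicate 2, where the sum of fibroblast markers was highest. Serpinf1, which encodes PEDF, an inhibitor of vessel growth, stood at 47.1, 84.4 and 66.3 CPM in model and at 70.7, 193 and 60.2 CPM in DMDD liposome. Again 1 library carried the difference: the log2 fold change of 0.71 ± 0.44 (edgeR adjusted p = 0.731) was -0.018 without DMDD liposome replicate 2. DMDD liposome replicate 2 was also the highest library for the sum of the fibroblast markers, all 12 in the table and none at 0. They summed to 4174 to 7612 CPM in model and to 4037 to 10999 CPM in DMDD liposome. Most of that sum was Col1a1, Col1a2 and Col3a1, with 55729, 41399 and 39339 counts in DMDD liposome replicate 2. Of the 12, 8 were positive and 4 negative. Dcn and Lum had 1699 and 1334 counts in model replicate 2 against 1076 and 1068 in DMDD liposome replicate 2. Pericyte and smooth muscle markers, 9 of 9 in the table and none at 0, summed to 178 to 272 CPM in model and 284 to 658 CPM in DMDD liposome, with DMDD liposome replicate 2 highest. The part of these cells in the results was not tested.

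**Figure D3:**
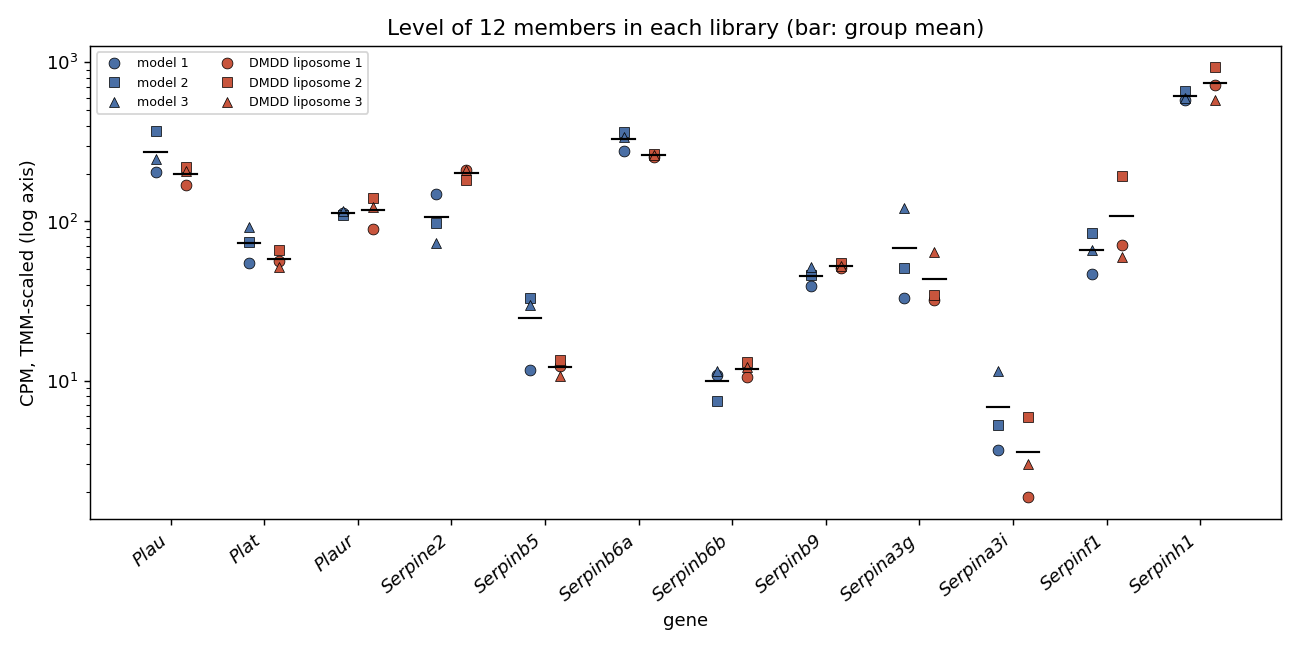
CPM (log axis) of 12 tested members in each library, with model in blue, DMDD liposome in red, a symbol for each replicate number and a bar for the group mean. Serpine2 and Serpinb6a are the members whose groups do not overlap, and for Serpinb5 the point of model replicate 1 lies among the DMDD liposome points.

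Of the other 7 tested members none had an unadjusted p under 0.05. Their log2 fold changes ran from -0.48 for Serpina1b, of the alpha-1-antitrypsin genes, to 0.34 for Serpinb8, a cytosolic inhibitor of furin. Their unadjusted edgeR p ran from 0.384 for Serping1, the C1 inhibitor of complement, to 0.861 for Serpina3n, an antichymotrypsin-like gene. Serping1 averaged 46.0 FPKM, and its groups overlapped at 76.8, 79.1 and 97.3 CPM in model against 59.1, 140 and 105 CPM in DMDD liposome.

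**Figure D4:**
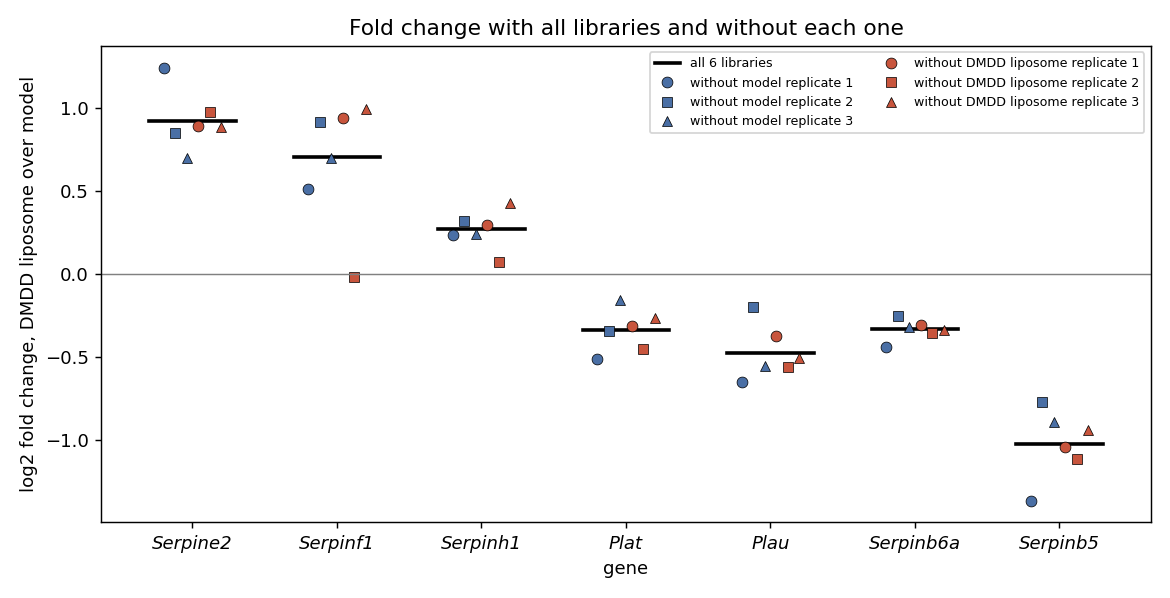
Log2 fold change of 7 members with all 6 libraries (black bar) and without each library in turn (points). Serpine2 stays between 0.70 and 1.24, whereas Serpinh1 and Serpinf1 drop to 0.07 and -0.018 without DMDD liposome replicate 2.

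Most of the 30 members below the count filter were near silent, and of the 13 with at least 10 counts in all, 9 had more counts in model replicate 2 than in the other 5 libraries together. A gene with its reads in 1 library fails the filter, so some concentration in 1 library follows from this selection. The same tally was not made for all untested genes. Counts of the 30 members summed to 362 in model replicate 2 and to between 22 and 49 in each other library, and 15 had at most 3 counts in every library. Model replicate 2 was the highest library for 15 of the 30, against 22.4% of all untested genes. Serpinb3b, a mouse relative of the squamous cell carcinoma antigens, had 138 counts there, 1 in DMDD liposome replicate 3 and 0 in the others. Serpina3b and Serpina3j, neighbors of Serpina3g in the clade A cluster, had 45 and 25 counts in model replicate 2 and 0 in every other library. Serpinb10, a clade B gene beside Serpinb2, had 2, 28 and 1 counts in model and 0, 3 and 1 in DMDD liposome. These 4 genes, named for at least 20 counts in 1 library, thus had most of their reads in the library that also carried the epidermal markers.

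Of the 13 keratinocyte markers in the table, 0 were at 0 in model replicate 2, and 7 to 10 were at 0 in each other library. Krt5, a basal keratin, had 1919 counts in model replicate 2 and at most 2 elsewhere. The part of epidermal RNA in these serpin counts was not tested. A count of 0 in a DMDD liposome library allows up to 0.204 to 0.227 CPM, with counting error only.

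**Figure D5:**
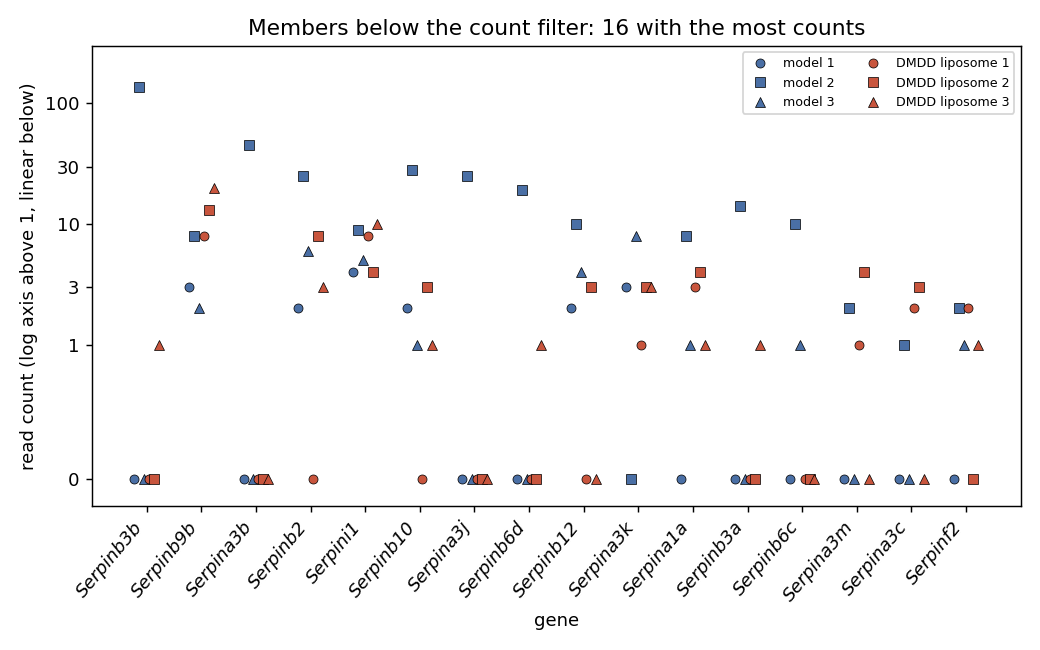
Read counts in each library for the 16 members with the most counts among the 30 below the count filter (log axis above 1, linear below). The square in blue, model replicate 2, is the highest point for Serpinb3b at 138 and Serpina3b at 45, where the other libraries hold 0 or 1.

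Many members sit beside each other in the genome, and close copies can split reads. RefSeq's gene order places 17 of the members in 1 run of adjacent serpin genes on chromosome 12, 11 on chromosome 13 and 9 on chromosome 1. Of the 50 members, 14 shared no stretch of 50 bases of GENCODE transcript with another gene, among them Plau, Plat, Plaur, Serpinb5, Serpinf1 and Serpinh1, and Serpine2 shared 0.0728% of its stretches. The shares were 15.5% for Serpina3g, 15.9% for Serpina3i, 29.5% for Serpina1b and 14.7% for Serpinb3b. Counts of those members, and of the 16 with a share over 10%, are uncertain in how reads were split.

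Genes that work with this system were read from lists, and none passed edgeR's adjusted test. Plasminogen receptors, cofactors and clearance genes had 13 tested members, 9 positive and 4 negative, where 51.2% of all genes tested were positive. Their median log2 fold change was 0.25 beside 0.0058 over all genes, and 0 of the 13 had an unadjusted p under 0.05. Groups did not overlap for 1 of the 13, against 12.9% of all genes tested. The smallest p belonged to Anxa2, whose product binds plasminogen on the cell surface with that of S100a10. Anxa2 stood at -0.39 ± 0.18 on the log2 scale (edgeR adjusted p = 0.644), Lrpap1, a chaperone of the receptor that clears serpin complexes, at 0.31 ± 0.15, and S100a10 at -0.50 ± 0.24.

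Coagulation genes had 17 tested members, 13 positive and 4 negative, where 51.2% of all genes tested were positive, with a median of 0.33. At an unadjusted p under 0.05, 2 were higher and 1 lower, where 4.34% and 3.31% of all genes tested were. F13a1, the clot crosslinking enzyme, measured 64.3 ± 30.2 CPM in model against 181 ± 65.1 CPM (SD, n = 3 per group), and F5, a cofactor of thrombin formation, had 26, 42 and 16 counts against 142, 66 and 59. F2rl1, a receptor opened by trypsin-like proteases, measured 60.5 ± 12.1 CPM against 35.6 ± 6.38 CPM. Groups did not overlap for F13a1, F5 and F2rl1, 3 of the 17, against 12.9% of all genes tested. Each of the 3 had an edgeR adjusted p of 0.626.

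Proteases listed as possible serpin targets had 21 tested members, 11 positive and 10 negative, with a median of 0.059. Their groups did not overlap for 2 of the 21, against 12.9% of all genes tested. At an unadjusted p under 0.05, 2 were higher and 4 lower, beside the same 4.34% and 3.31% of all genes. The 4 lower were all mast cell proteases: Mcpt4, Cma1, Tpsb2 and Tpsab1. Prtn3, a protease of myeloid granules, had 8, 13 and 3 counts in model and 28, 43 and 35 in DMDD liposome. The mast cell chymases Mcpt4 and Cma1 stood at log2 fold changes of -3.79 ± 0.93 and -2.69 ± 0.80 (edgeR adjusted p = 0.626 for each), with overlapping groups. The list of collagens and of genes that fold them beside Serpinh1 had 16 tested members. Of these, 14 were positive, where 51.2% of all genes tested were, with a median of 0.22. The positive ones included the collagens Col1a1, Col1a2, Col3a1 and Col5a1, at log2 fold changes of 0.24 ± 0.42, 0.28 ± 0.42, 0.33 ± 0.48 and 0.21 ± 0.36. Their edgeR adjusted p ran from 0.881 to 0.901, with overlapping groups, and each was highest in DMDD liposome replicate 2. Col1a1 had 20759, 42522 and 28196 counts in model replicates 1 to 3. In DMDD liposome replicates 1 to 3 it had 21790, 55729 and 23010. At an unadjusted p under 0.05, 3 of the 16 were higher and 0 lower, beside 4.34% and 3.31% of all genes. Groups did not overlap for 4 of the 16, against 12.9% of all genes tested. Fkbp14, a collagen prolyl isomerase, stood at 0.72 ± 0.21, and P3h1 and P3h3, of the prolyl 3-hydroxylase family, at 0.52 ± 0.18 and 0.48 ± 0.19. Their adjusted p were 0.626, 0.626 and 0.629 in edgeR.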

How the data were processed

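Tumor RNA-seq of 3 model and 3 DMDD liposome libraries was read from 1 deposited table. Per the file headers it holds read counts per gene, which the authors also deposited as normalized signal (counts divided by a size factor per library) and as FPKM. The authors' deposited table further gives log2 fold changes (model over DMDD liposome) with p-values, and the submitters' processing notes name DESeq2 and mm9. Which aligner, counter and strand setting were used is not given in the sources used here. The test ran on the counts in edgeR 4.0.16 (R 4.3.3), after filterByExpr (minimum count 10, minimum total 15) and TMM scaling, as a two-sided quasi-likelihood test over 12891 genes with Benjamini-Hochberg adjustment at 0.05. SE came from the F statistic. The same fit was also run on simulated counts, drawn with the means and dispersions that the fit to these data gave. Alternatives were DESeq2 1.42.0 (test, or size factors), no filter, a replicate block and leaving out each library.

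The members and lists were chosen with earlier results of these data known. Members named were the main activators and inhibitors, the 12 tested members with the smallest p, the 6 with the highest FPKM, those called by the authors and untested ones with at least 20 counts in 1 library. For each pathway list the 3 genes with the smallest p were named. Serpina5 was in the rule but had no row among the 50. Sequences and gene order came from RefSeq and GENCODE tables of GRCm38. One member that the naming rule takes is not reported here.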

Additional observations from a re-analysis of the deposited data

How the results depend on the processing

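The adjusted test called 0 of 12891 genes and 0 of 20 members in edgeR, also with DESeq2 size factors and with no filter. DESeq2's Wald test called 59 genes over the whole table and 0 members. Leaving out single libraries gave 0 to 112 genes and 0 to 2 members, with both upper values reached without model replicate 1. The median log2 fold change of the 20 members, -0.14 with all libraries, ranged from -0.41 without model replicate 1 to 0.056 without model replicate 2. Among the 13 named members tested, 125 of the values under other settings kept their direction and side of the threshold. The sign turned for Plaur and Serpinf1 without DMDD liposome replicate 2 and for Serpina3g without model replicate 3. Over the fits without 1 library, Plaur ranged from -0.094 to 0.23, Serpinf1 from -0.018 to 0.996 and Serpina3g from -1.04 to 0.036. Serpine2 and Serpinb5 passed the threshold without model replicate 1. Fewer samples were fitted in each of these, and the cause was not tested. With the replicate number as a block, 0 genes and 0 members were called and the median was -0.11. The numbers were not taken to pair the samples, since deviations of same-numbered libraries correlated at 0.0876, 0.114 and 0.121, although each library correlated best with its own number. Members below about 10 counts per library are limited by counting error.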
